A study of Mus musculus with 12 samples.

Results

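Lens capsules with their attached lens cells (LCs) from mice that lack the β8 integrin subunit in the lens (β8ITG-cKO) were compared with wild-type (WT) capsules at 24 h post cataract surgery (PCS). The comparison took the 6 libraries of 24 h among the 12 of the series, 3 of each genotype, and all 45859 genes of the deposited table. WT mice were C57BL/6. The β8ITG-cKO mice were of a mixed strain (C57BL/6 and 129S1/Sv) and carried an Itgb8 allele with a floxed exon 4 together with the lens-specific MLR10-Cre transgene, a Cre line active in lens epithelium and fibers since early lens development. Genotype and strain therefore cannot be told apart, and no group with the Cre transgene alone was used here. In both genotypes the mice were 2 months old, the fiber cell mass had been taken out through a corneal incision, and each library pooled 5 capsules. Mice of both sexes were used in the study, and the sex of a pool is not in the labels. Nothing in the labels ties a library to a culture or a litter, so p-values measure the spread between these pooled libraries.

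The αVβ8 integrin binds the latency peptide that holds TGF-β inactive, and this can free the growth factor, which drives LCs toward myofibroblasts after surgery. LCs that stay on the capsule are lens epithelial cells with some fiber cells, and crystallins, the refractive proteins of the lens, are the mark of both. Rod and cone photoreceptors are neurons of the retina that turn light into a signal with a light receptor, a G protein and a phosphodiesterase, under transcription factors such as CRX. They are not part of the lens capsule, so lens genes and retinal genes were counted apart.

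Levels are given in FPKM (fragments scaled to gene length and library size), and differences as β8ITG-cKO minus WT on the log2(FPKM + 1) scale with their standard error (SE). The SE is the moderated one of the limma-trend fit, which draws the spread of each gene toward that of genes of like level. In all, 15366 genes reached a mean level of 0.5 FPKM and were tested, of which 518 were called higher and 44 lower in β8ITG-cKO LCs, which is 3.37% and 0.286% of the genes tested. A gene passed the test when limma-trend gave it a Benjamini-Hochberg adjusted p no higher than 0.05, which 5.64% of genes did in the higher and 0.644% in the lower direction. To be called, its group means also had to differ more than 2-fold and by more than 2 FPKM, with 1 of them reaching 2 FPKM. In all 562 called genes the 3 libraries of one genotype lay apart from the 3 of the other, as they did in 17.5% of tested genes in the higher direction and 9% in the lower. The median difference over all genes was 0.03. Itgb8 itself (chr12:119162803-119238276 in mm10) had 9.08, 8.38 and 9.58 FPKM in WT against 9.28, 11.8 and 10.3 FPKM in β8ITG-cKO, and at 0 h its means were 8.82 and 6.24 FPKM. Since gene-level FPKM cover every exon, this does not check the deletion of exon 4. The 53 called genes of the photoreceptor lists were all higher, and none of the 42 lens genes tested was called in either direction.

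**Figure D1:**
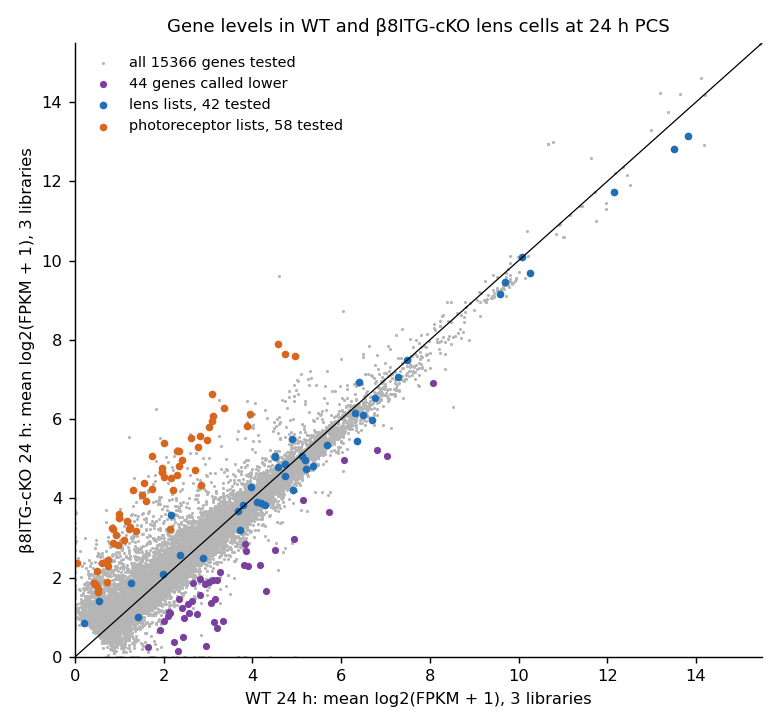
Mean log2(FPKM + 1) of 3 libraries in WT (x axis) against β8ITG-cKO (y axis) at 24 h PCS, with 1 point per gene tested and the line of equal level. The 58 photoreceptor genes lie above the line, the 42 lens genes lie along it up to the highest levels, and the 44 genes called lower lie below it.

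Promoters of 4 photoreceptor genes, and of Sprr1a, which had the largest fall among genes of 10 FPKM or more that are not predicted genes or pseudogenes, are shown with the motifs they hold. TAATCC is the core that CRX and its relative OTX2 bind, and it was searched on both strands of the 250 bases before the start of each gene in RefSeq (GRCm38.p6). Of the 53 photoreceptor genes called higher, 36 had a promoter in that table, and 13 of these (36.1%) held TAATCC. The share was 12.8% among the 366 promoters of all genes called higher, 5.29% among the 10627 promoters of genes tested, and 6.38% of all 27025 promoters. Capitals mark TAATCC, which reads GGATTA where it lies on the other strand.
Rbp3 (chr14:33953753-33954002, plus strand): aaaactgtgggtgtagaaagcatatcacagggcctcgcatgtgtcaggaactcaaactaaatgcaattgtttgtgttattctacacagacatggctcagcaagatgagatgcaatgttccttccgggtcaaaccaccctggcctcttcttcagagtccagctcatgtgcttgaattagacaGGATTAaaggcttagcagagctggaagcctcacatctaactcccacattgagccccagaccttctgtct
Crx (chr7:15879956-15880205, minus strand): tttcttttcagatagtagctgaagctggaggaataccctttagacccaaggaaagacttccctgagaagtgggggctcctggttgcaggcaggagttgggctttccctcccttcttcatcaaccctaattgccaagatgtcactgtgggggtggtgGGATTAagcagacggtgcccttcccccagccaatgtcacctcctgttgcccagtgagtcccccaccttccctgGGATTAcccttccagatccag
Gngt1 (chr6:3993758-3994007, plus strand): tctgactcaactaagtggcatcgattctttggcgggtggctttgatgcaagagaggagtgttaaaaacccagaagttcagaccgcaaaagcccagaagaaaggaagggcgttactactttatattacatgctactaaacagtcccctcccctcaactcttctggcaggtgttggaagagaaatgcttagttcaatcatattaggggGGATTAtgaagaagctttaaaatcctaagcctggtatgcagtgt
Pdc (chr1:150319167-150319416, plus strand): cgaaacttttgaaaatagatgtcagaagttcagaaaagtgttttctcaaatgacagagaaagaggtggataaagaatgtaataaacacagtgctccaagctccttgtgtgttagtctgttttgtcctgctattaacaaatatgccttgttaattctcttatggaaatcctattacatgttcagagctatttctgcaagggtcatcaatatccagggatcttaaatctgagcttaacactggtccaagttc
Crx holds the core at 2 places, Rbp3 and Gngt1 at 1 each, and Pdc at none in this window. Among the 25 promoters of the genes called lower, 1 held it. The core bound by AP-1 factors such as Jun and Fos, TGACTCA, was in 5 of these 25 promoters (20%), against 3.03% of the promoters of genes tested and 16.7% of the 36 promoters of lens genes. Sprr1a holds it at 2 places, marked in capitals, where TGAGTCA is the same core on the other strand.
Sprr1a (chr3:92485882-92486131, minus strand): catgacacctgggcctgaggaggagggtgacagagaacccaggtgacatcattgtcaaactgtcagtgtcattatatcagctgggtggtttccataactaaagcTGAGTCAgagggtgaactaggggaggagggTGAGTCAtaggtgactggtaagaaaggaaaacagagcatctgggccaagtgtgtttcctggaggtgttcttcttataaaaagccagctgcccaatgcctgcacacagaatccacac
CAGACA, a core bound by SMAD proteins, was in 2 of the 25 promoters of lower genes (8%), in 15% of those of higher genes and in 13.2% of those tested. A match is a description of these letters and shows no binding.

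All 22 rod phototransduction genes were called higher in β8ITG-cKO LCs, against 3.37% of all genes, with a median difference of 2.55. Gnat1, the α subunit of rod transducin, had 16.7, 28.7 and 34.9 FPKM in WT against 228, 168 and 203 FPKM in β8ITG-cKO, a 7.47-fold difference of means (2.90, SE 0.27, adjusted p = 0.00162). The lowest β8ITG-cKO library thus stood several times above the highest WT library. Gngt1 encodes the γ subunit of the same G protein and differed by 2.97 (SE 0.20, adjusted p = 0.000732). Pde6a, a catalytic subunit of the rod phosphodiesterase, differed by 2.92 (adjusted p = 0.00146). Pdc encodes phosducin, which binds the transducin β and γ subunits, and had 3.83, 5.26 and 6.58 FPKM in WT against 52.7, 33.8 and 52.1 FPKM in β8ITG-cKO. For none of these 4 genes did the groups overlap, and each stayed called when any 1 library was left out. In libraries of whole capsules, fewer cells of a type and less RNA per cell cannot be told apart.

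Genes of photoreceptor structure and of the matrix around photoreceptors followed, with 19 of 20 called higher and a median of 2.42. Rbp3 (chr14:33954022-33964216), the retinoid carrier of that matrix, had the largest difference on the photoreceptor lists. It had 5.39, 9.65 and 8.10 FPKM in WT against 101, 95.9 and 99.9 FPKM in β8ITG-cKO, a log2 difference of 3.55 (SE 0.19, adjusted p = 0.000335). Rp1, a microtubule protein of the outer segment, had 2.44, 3.95 and 2.79 FPKM in WT against 39.8, 43.4 and 40.7 FPKM in β8ITG-cKO. The β8ITG-cKO libraries of both genes lay within a narrow band, far above WT. All 9 photoreceptor transcription factors were called higher, with a median of 2.00. Crx had 2.11, 2.05 and 2.95 FPKM in WT against 29.6, 33.1 and 35 FPKM in β8ITG-cKO (log2 difference 3.32, SE 0.15, adjusted p = 0.000335). Neurod1, a neuronal factor that photoreceptors need, differed by 2.90 (SE 0.41, adjusted p = 0.00741).

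Cone genes had the lowest median of the photoreceptor lists, 1.35. Of 10 cone phototransduction genes, 7 passed the filter on low values and 3 were called higher. Gnb3, the transducin β subunit of cones, had 1.45, 3.63 and 4.22 FPKM in WT against 20.5, 25.0 and 27.4 FPKM in β8ITG-cKO (log2 difference 2.69, adjusted p = 0.00249). Pde6h, the inhibitory subunit of the cone phosphodiesterase, was listed at 0 in WT replicates 1 and 3 and at 0.0856 FPKM in replicate 2, against 1.96, 4.80 and 6.88 FPKM in β8ITG-cKO. Over all 4 photoreceptor lists, 61 genes were listed and 58 were tested, 55 passed the test, and the fold of means among the 53 called had a median of 7.47 and a range from 2.97 to 159, the upper end being Pde6h with its WT level near 0. These lists were chosen with earlier results of the same data known, so their direction is no independent support.

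Genes of other retinal cells were called higher too. Of the 37 genes tested on 5 further retinal lists, 17 were called higher, 20 passed the test in that direction, and none was called lower. The retinal synapse list, which holds vesicle and release proteins, had 7 of 8 genes called and a median of 2.61. Snap25, a vesicle fusion protein, had 1.22, 2.98 and 4.05 FPKM in WT against 27.8, 26.3 and 35.9 FPKM in β8ITG-cKO (adjusted p = 0.00175). Syp, the vesicle protein synaptophysin, differed by 2.98 (SE 0.30, adjusted p = 0.00225). Every β8ITG-cKO library was well above every WT library in both genes.

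Among bipolar cell genes, 5 of 9 tested were called higher. Pcp2, which marks rod bipolar cells, was listed at 0 in WT replicate 1 and had 0.609 and 1.61 FPKM in replicates 2 and 3, against 11.4, 14.9 and 9.97 FPKM in β8ITG-cKO. Cabp5, a calcium-binding protein of bipolar cells, differed by 2.31 (adjusted p = 0.00329). Of 9 genes of inner retinal neurons, 4 were called, among them Gad1, which makes the transmitter GABA, and Nefl, a neurofilament subunit, with differences of 2.1 and 1.97 (adjusted p = 0.00607 and 0.0176). The Nefl call stayed in 3 of 6 fits without 1 library, with an adjusted p of up to 0.0774. Müller glia, the support cells of the retina, had a summed list of 337 to 563 FPKM in WT against 365 to 595 FPKM in β8ITG-cKO, and 1 of 7 genes was called, the glutamate transporter gene Slc1a3 (1.43, SE 0.30, adjusted p = 0.0348). That call was lost in 5 of 6 fits without 1 library, with an adjusted p of up to 0.112. No gene of the retinal pigment epithelium list was called among 4 tested. Rdh5, a retinol dehydrogenase of that layer, had 28.8, 26.9 and 10.9 FPKM in WT against 21.8, 22.8 and 20.3 FPKM in β8ITG-cKO, so the groups overlapped, and Ttr, the thyroid hormone carrier transthyretin, differed by 1.13 (SE 0.32, adjusted p = 0.0928).

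The photoreceptor genes varied together from library to library, in the 0 h libraries as well, which the comparison at 24 h does not use. Summed over the 4 lists, photoreceptor RNA at 24 h was 160.6, 308 and 346 FPKM in WT against 1977, 1780 and 2048 FPKM in β8ITG-cKO. At 0 h it was 647, 2086 and 275 FPKM in WT against 644, 358 and 511 FPKM in β8ITG-cKO. WT replicate 2 at 0 h therefore reached the level of the β8ITG-cKO libraries of 24 h, and the genotypes overlapped at 0 h. As a share of all FPKM the lists took 0.0302% to 0.0609% in WT at 24 h, 0.333% to 0.373% in β8ITG-cKO at 24 h, and 0.0541% to 0.326% over the 6 libraries of 0 h. Within a library the proportions changed less than the sum: the rod list over the structure list was 1.82 to 2.13 in WT and 1.94 to 2.29 in β8ITG-cKO at 24 h, and 2.72 to 3.40 at 0 h.

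**Figure D2:**
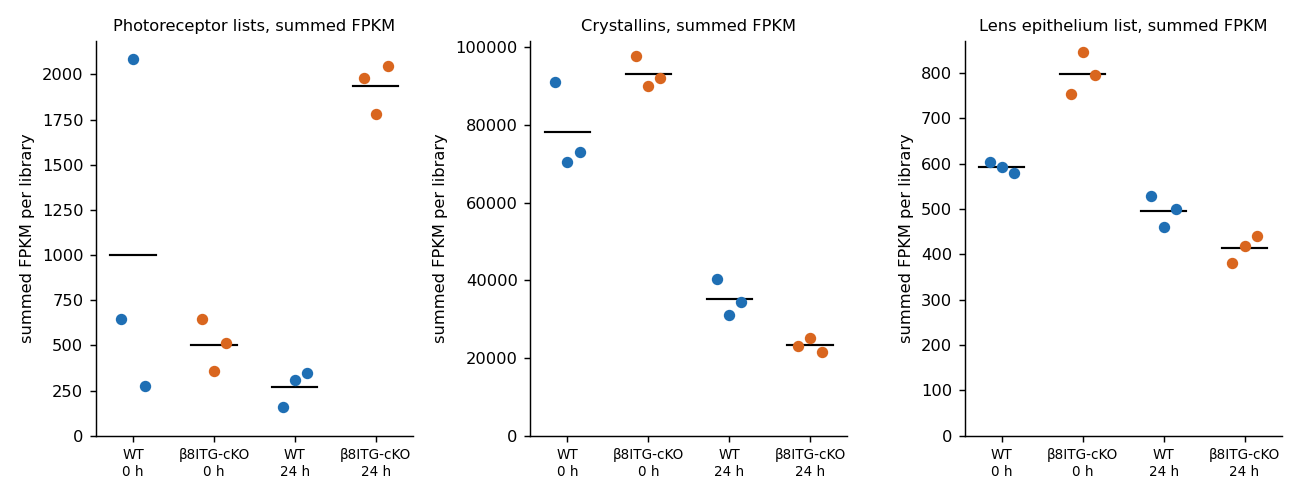
Summed FPKM per library (y axis, from 0) of the photoreceptor lists, the crystallins and the lens epithelium list in the 4 groups, with 3 libraries each as points and their mean as a bar. Photoreceptor sums of the β8ITG-cKO libraries at 24 h (1780 to 2048 FPKM) are matched by a single other library, WT replicate 2 of 0 h, while crystallin sums at 24 h are lower in β8ITG-cKO than in WT. The crystallin sum of WT replicate 2 of 0 h lacks Cryaa, which is listed at 0 there.

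At 0 h, 54 of the 58 photoreceptor genes had the higher mean in WT, but 13 did without WT replicate 2, so that library set the order. At 0 h 0 of the 58 passed the test in either direction, against 4.18% of genes tested at 0 h that were higher in β8ITG-cKO and 2.75% that were lower. The difference between genotypes at 24 h minus that at 0 h, tested as an interaction over 12 libraries, passed for 49 of the 58, against 9.39% of all 15262 genes tested for it. Of the 518 genes called higher at 24 h, 503 were tested at 0 h, and 418 of these (83.1%) had the lower mean in β8ITG-cKO there, as did 46.4% of all genes tested at both times. Without WT replicate 2 of 0 h the number was 273 (54.3%), against 40.5% of all genes. The genes called higher also tracked photoreceptor RNA at 0 h. Over the 6 libraries of 0 h, after removal of genotype means, Pearson's r with the photoreceptor sum was above 0.9 for 319 of the 518 (61.6%), for 1574 of 15282 genes with a value (10.3%), and for 0 of 41 genes called lower. This correlation is a description over 6 libraries and leans on WT replicate 2 of 0 h, without which the numbers were 196 genes (37.9%) against 12% of all genes. With the part of each gene that followed photoreceptor RNA at 0 h subtracted from the 24 h libraries, the split of calls was 157 higher and 337 lower, in place of 518 and 44, and 18 photoreceptor genes were still called higher.

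**Figure D3:**
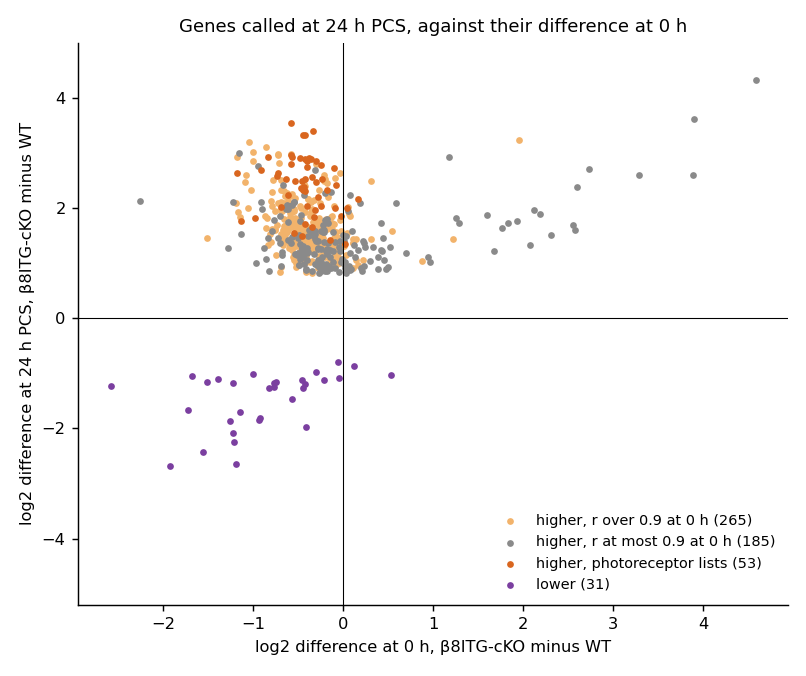
Log2 differences (β8ITG-cKO minus WT) at 0 h (x axis) and at 24 h PCS (y axis) of the 534 called genes that were tested at both times, with 1 point per gene. Most genes called higher at 24 h lie left of 0 (418 of 503, and 273 without WT replicate 2 of 0 h), a small set called higher lies to the right with like differences at both times, and the genes called lower lie mostly left of 0.

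Of the genes called higher, 448 were on no retinal list. With predicted genes and pseudogenes left aside, the largest differences at 10 FPKM or more included Hist4h4 and the following genes. Chga and Chgb encode chromogranins, the cargo proteins of dense-core vesicles. Chga had 0.743, 2.01 and 1.98 FPKM in WT against 18.8, 22 and 25.7 FPKM in β8ITG-cKO (log2 difference 3.20, SE 0.24, adjusted p = 0.00108). Chgb had 0.785, 2.38 and 4.14 FPKM in WT against 21.5, 23.5 and 23.4 FPKM in β8ITG-cKO (2.92, adjusted p = 0.0039). In both genes WT replicate 1 was the lowest library, as it was for the photoreceptor sum. Sncb, β-synuclein of nerve endings, differed by 3.02 (SE 0.37, adjusted p = 0.00439). Eef1a2, a translation factor of neurons and muscle, differed by 2.60 (adjusted p = 0.0079). Rtbdn, a riboflavin-binding protein of the retina, differed by 2.80 and Zfyve28 and Lbhd1 by 2.98 and 2.63, with an adjusted p of 0.00232, 0.00142 and 0.000335. All 7 of these genes had r above 0.9 with photoreceptor RNA at 0 h.

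Genes with at least 10 FPKM already in WT showed smaller folds. Agtpbp1, an enzyme that trims glutamates from tubulin, had 10.5, 12.6 and 11.5 FPKM in WT against 42.3, 44.0 and 45.7 FPKM in β8ITG-cKO, a 3.82-fold difference of means (adjusted p = 0.000732). Plekhb1, a membrane protein of photoreceptors, differed 2.82-fold (adjusted p = 0.00225). Gnao1, the neuronal Go α subunit, differed 2.51-fold (adjusted p = 0.0126). The Gnao1 call was lost in 2 of 6 fits without 1 library, with an adjusted p of up to 0.063. The small nucleolar RNA genes of the Snord116 cluster had the highest levels among the genes called higher. Snord116 had 1337, 2105 and 1916 FPKM in WT against 5806, 10231 and 9364 FPKM in β8ITG-cKO, a 4.74-fold difference (adjusted p = 0.00952). The Snord116 means of 0 h (WT 4722, β8ITG-cKO 4447 FPKM) lay between those of 24 h (WT 1786, β8ITG-cKO 8467 FPKM). Single libraries of 0 h were spread widely. WT replicate 3 of 0 h, at 1615 FPKM, was within the WT range of 24 h. Replicate 2 of each genotype at 0 h, at 7609 (WT) and 6864 FPKM, was within the β8ITG-cKO range of 24 h. Snord116l1 and Snord116l2 differed by 2.29 and 2.27, but the copies are near-identical, share a locus in the files, and their reads cannot be assigned with certainty. Scarna6, a guide RNA of Cajal bodies, differed by 1.44 (adjusted p = 0.0342) and lost its call in 4 of 6 fits without 1 library.

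A set of 26 genes was called higher in β8ITG-cKO at 24 h and passed the test in the same direction at 0 h, which is 5.17% of the called genes tested at 0 h and close to the 4.3% over all genes tested at both times. Of these 26, 15 are predicted genes or pseudogenes by their symbols. Gm10260 and Gm11942 are named here after their values were seen, as are Gm15772, Rps2-ps10 and Rps2-ps13. Gm15772 had 62.9, 83.1 and 51.3 FPKM in WT against 431, 520 and 343 FPKM in β8ITG-cKO at 24 h, and its differences at 24 h and 0 h were 2.70 and 2.74 (interaction adjusted p = 0.971). Gm10260 differed by 4.33 and 4.59, Gm11942 by 3.61 and 3.90, and Rps2-ps13 by 2.61 and 3.28, with interaction adjusted p of 0.823, 0.335 and 0.382. Rps2-ps10 differed by 2.60 and 3.89 (interaction adjusted p = 0.134). For each of these 5 genes, every β8ITG-cKO library was above every WT library at both times, and Gm11942 was listed at 0 in 5 of the 6 WT libraries. Rps2-ps10 is listed at the same locus as the rod gene Pde6a (chr18:61220499-61289750), and its r with photoreceptor RNA at 0 h was 0.816. Reads of such genes can be shared with near-identical copies elsewhere. Gbp2b, also of the 26 and named after its values were seen, had 24 h means of 0.0098 FPKM in WT against 6.97 FPKM in β8ITG-cKO. At 0 h its means were 0.0103 and 1.31 FPKM (adjusted p = 0.0174), and the interaction adjusted p was 0.00915. The part of the strain in all these differences was not tested. Hist4h4, a histone H4 gene, was among the genes of the largest differences at 24 h, with 15.1, 11.6 and 3.20 FPKM in WT against 60.7, 81.4 and 139 FPKM in β8ITG-cKO at 24 h (3.24, SE 0.52, adjusted p = 0.0111) and was higher at 0 h too, by 1.95 (adjusted p = 0.0203).

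The lens genes were counted apart. Of 46 genes on 3 lens lists, 42 were tested and 0 were called, against 3.37% of all genes tested called higher and 0.286% lower. Over 42 genes, 0 calls is near these shares. In β8ITG-cKO 16 of the 42 had higher and 26 lower means, with a median of −0.20. The groups lay apart in 2 of the 42 genes in the higher direction and 10 in the lower, against 17.5% and 9% of all genes tested. Crystallin RNA summed to 40221, 30991 and 34331 FPKM in WT against 23170, 25156 and 21423 FPKM in β8ITG-cKO, so the 3 β8ITG-cKO libraries were all below WT in the sum. Cryaa, the αA-crystallin gene, had 16101, 13612 and 13688 FPKM in WT against 8385, 9962 and 8816 FPKM in β8ITG-cKO, a log2 difference of −0.68 (SE 0.35, adjusted p = 0.334). Crybb2, a β-crystallin gene, differed by −0.70 (SE 0.35, adjusted p = 0.315). Neither passed the test, although the groups did not overlap in either gene. Their SE and adjusted p rest on the moderated spread, not on the scatter of the libraries alone. The median over the 14 crystallins tested was −0.11, with a range from −0.70 to 1.42. At 0 h the crystallin sums were 90873, 70322 and 72983 FPKM in WT against 97638, 89983 and 91919 FPKM in β8ITG-cKO. Cryaa is listed at 0 in WT replicate 2 of 0 h, which can be a failed estimate, against 28167 and 24296 FPKM in WT replicates 1 and 3. The crystallin sum of that library therefore lacks Cryaa and is not comparable with the others.

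Fiber genes other than crystallins had a median of −0.35 over 15 tested. Bfsp2, the beaded filament protein phakinin, had 121, 83.2 and 106 FPKM in WT against 60.2, 74.2 and 54.4 FPKM in β8ITG-cKO (−0.70, SE 0.19, adjusted p = 0.0767). Of 13 lens epithelium genes, 1 passed the test, in the lower direction, against 0.644% of all genes. Cdh1, the E-cadherin gene of epithelial junctions, had 75.2, 77.5 and 90.0 FPKM in WT against 43.2, 46.5 and 37.7 FPKM in β8ITG-cKO (−0.92, SE 0.14, adjusted p = 0.00982). It was not called because its fold of means, 1.91, is under 2. At 0 h the order was the other way round, with a WT mean of 59.1 FPKM and a β8ITG-cKO mean of 95.0 FPKM (adjusted p = 0.0116), and the difference between the times was −1.59 (interaction adjusted p = 0.00144). The summed lens epithelium list showed the same order, with 459.6 to 529 FPKM in WT against 381 to 441 FPKM in β8ITG-cKO at 24 h, against 580.3 to 603 and 753 to 847 FPKM at 0 h.

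**Figure D4:**
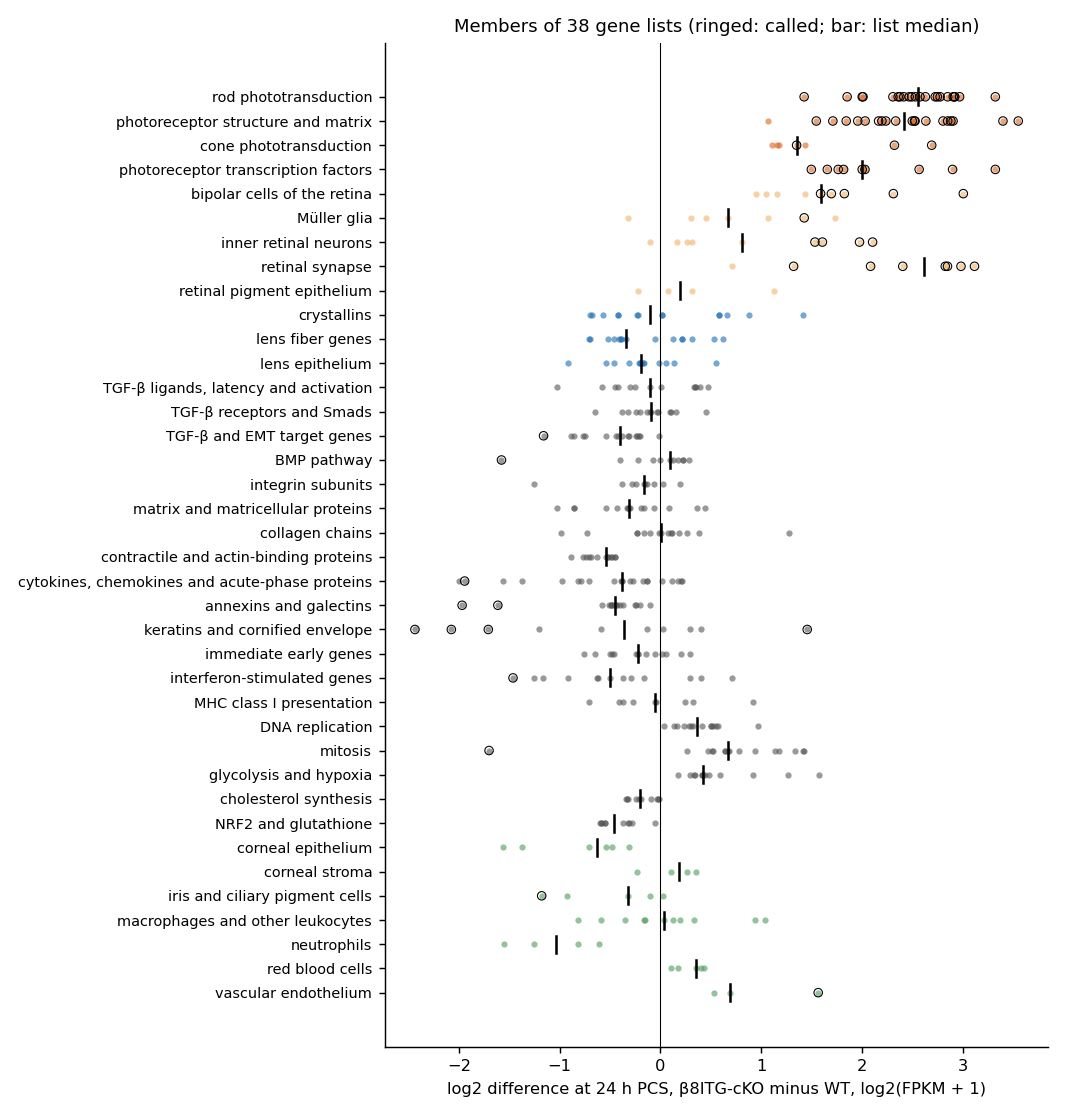
Log2 differences at 24 h PCS (x axis, β8ITG-cKO minus WT) of the tested members of 38 gene lists (rows), with 1 point per gene, a ring for a called gene and a bar for the list median. The photoreceptor lists have medians of 1.35 to 2.55 and most of their members are ringed, while the 3 lens lists lie around 0 with no ring.

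Among the 44 genes called lower in β8ITG-cKO were genes of surface epithelia. On the list of keratins and cornified envelope genes, 3 of 10 tested were called lower and 1, the keratin gene Krt18, higher (1.46, adjusted p = 0.0252), against 0.286% and 3.37% of all genes. Sprr1a (chr3:92483954-92485881), an envelope precursor protein induced by injury in many tissues, had 57.8, 53.2 and 45.7 FPKM in WT against 16.5, 6.46 and 14.3 FPKM in β8ITG-cKO. Its mean was 4.21-fold lower, and it stayed called in all 6 fits without 1 library. Sprr1a was lower at 0 h too (−1.23, adjusted p = 0.0249), and its interaction did not pass (adjusted p = 0.232). Sfn, the epithelial 14-3-3σ protein, had 10.4, 13.1 and 5.35 FPKM in WT against 0.321, 1.21 and 1.2 FPKM in β8ITG-cKO (−2.44, SE 0.33, adjusted p = 0.00613). At 0 h it was lower as well (−1.56, adjusted p = 0.00552), with an interaction adjusted p of 0.217. Tgm1, the transglutaminase that links the envelope, was named after its values were seen and had 6.47, 8.94 and 8.70 FPKM in WT against 1.81, 1.82 and 1.61 FPKM in β8ITG-cKO (−1.71, adjusted p = 0.00162). In these 3 genes no β8ITG-cKO library reached the lowest WT library. Likewise named afterwards, Sprr2e, another envelope precursor, Stfa3, a cystatin-type protease inhibitor, and Dsg1b, a desmosomal cadherin, had differences of −2.18, −2.47 and −1.24 (adjusted p = 0.00608, 0.00293 and 0.00398). Markers of corneal epithelium, the tissue opened at surgery, summed to 292, 157.5 and 449.6 FPKM in WT against 141, 150.6 and 192 FPKM in β8ITG-cKO. Most of each sum was a single gene, Aldh3a1, with 279, 151 and 392 FPKM in WT against 138, 145 and 189 FPKM in β8ITG-cKO. On that list 0 of 6 genes passed the test, and each mean was lower in β8ITG-cKO. Krt15 had 2.83, 4.03 and 46.4 FPKM in WT against 1.96, 3.51 and 1.65 FPKM in β8ITG-cKO, so a single WT library carried it, and Aldh3a1, a corneal crystallin, differed by −0.71 (SE 0.34, adjusted p = 0.294). Krt12, the defining keratin of that tissue, had 4.62, 0.134 and 0 FPKM in WT against 0.226, 0.503 and 0.269 FPKM in β8ITG-cKO. At 0 h the list summed to 214 to 273 FPKM in WT against 539.6 to 921 FPKM in β8ITG-cKO. Aldh3a1 alone had 208 to 264 and 535 to 911 FPKM of these sums, so they follow that gene and not the list. The part of corneal cells in these differences was not tested.

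**Figure D5:**
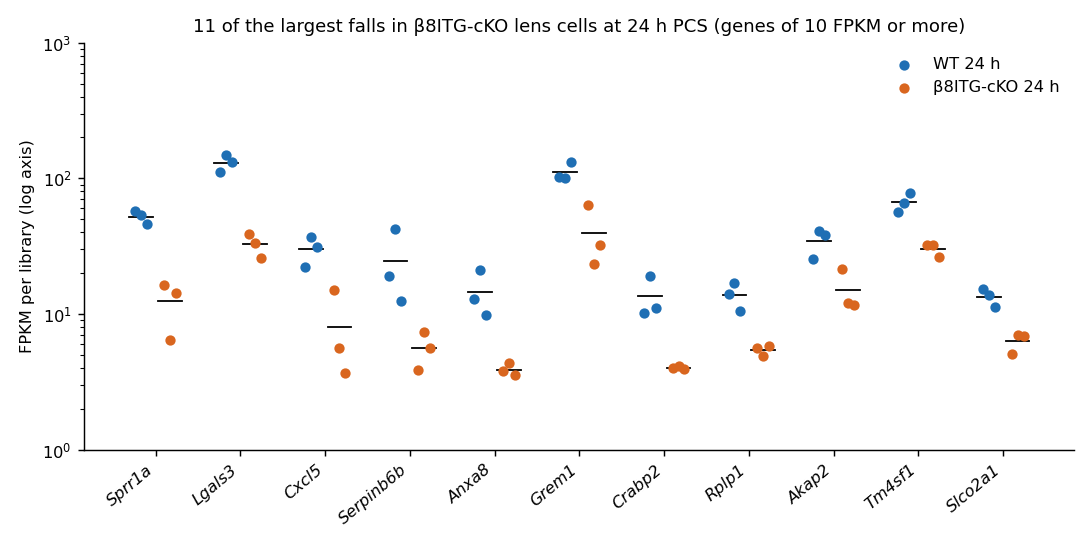
FPKM per library on a log axis (y) of 11 genes among the largest falls at 10 FPKM or more, without predicted genes and pseudogenes, with WT and β8ITG-cKO libraries of 24 h PCS as points and group means as bars. In each of the 11 genes all β8ITG-cKO libraries lie below all WT libraries, with the narrowest gap in Akap2 (25.5 FPKM in WT replicate 1 and 21.3 FPKM in β8ITG-cKO replicate 1).

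Annexins bind membranes in the presence of calcium, and galectins bind sugars. All 16 genes of their list had lower means in β8ITG-cKO, 9 with no overlap, against 9% of all genes tested in that direction. Without WT replicate 1 or without WT replicate 2, 15 of the 16 had lower means. Of the 16, 3 passed the test, of which Lgals3 and Anxa8 were called and Anxa4 (−0.52) was not. Lgals3, galectin-3, which binds cell surface sugars and rises in wounded epithelia, had 112, 148 and 131 FPKM in WT against 38.6, 33.3 and 26.1 FPKM in β8ITG-cKO. The 3.98-fold lower mean was called in all 6 fits without 1 library, and the difference at 24 h minus that at 0 h was −1.56 (interaction adjusted p = 0.00405). Anxa8, a membrane-binding annexin, had 12.8, 21.1 and 9.91 FPKM in WT against 3.78, 4.36 and 3.53 FPKM in β8ITG-cKO (−1.61, SE 0.25, adjusted p = 0.0105). Crabp2, a carrier of retinoic acid, was 3.36-fold lower (adjusted p = 0.00945), and Tm4sf1, a surface tetraspanin relative, was 2.2-fold lower (adjusted p = 0.00781). Both were called in all 6 fits without 1 library. Tm4sf1 was lower at 0 h too (−1.39, adjusted p = 0.0421), with an interaction adjusted p of 0.707. Slco2a1, the prostaglandin transporter, had 15.2, 13.8 and 11.3 FPKM in WT against 5.08, 6.95 and 6.85 FPKM in β8ITG-cKO (adjusted p = 0.0152), and stayed called in 2 of 6 fits without 1 library. Rplp1, a ribosomal stalk protein whose gene has many processed copies, was 2.55-fold lower (adjusted p = 0.00944).

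Several other calls were lost when 1 library was left out. Cxcl5, a chemokine that draws neutrophils, had 22, 37 and 31.1 FPKM in WT against 14.9, 5.62 and 3.69 FPKM in β8ITG-cKO (adjusted p = 0.0401). Serpinb6b, a protease inhibitor of leukocytes and epithelia, differed by −1.81 (SE 0.41, adjusted p = 0.0444), Akap2, an anchor of protein kinase A, by −1.18 (adjusted p = 0.045), and Grem1, the BMP antagonist gremlin-1, by −1.58 (SE 0.34, adjusted p = 0.0348). With 1 library left out, Serpinb6b, Cxcl5 and Grem1 stayed called in 1 of 6 fits each and Akap2 in 2. Pttg1, the mitotic protein securin, was 4.51-fold lower at 24 h (adjusted p = 0.0104) and lower at 0 h as well (−1.14, adjusted p = 0.0414). Its call at 24 h stayed in all 6 fits without 1 library. Pmel, a pigment cell protein, had 6.75, 9.05 and 7.23 FPKM in WT against 3.87, 2.40 and 2.34 FPKM in β8ITG-cKO, and stayed called in 4 of 6 fits. The iris and ciliary pigment list summed to 28.8 to 34.8 FPKM in WT against 13.4 to 25.1 FPKM in β8ITG-cKO, and the part of pigment cells was not tested.

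Many lower genes also differed between genotypes at 0 h. Of the 44, 31 were tested at 0 h, 29 had the lower mean in β8ITG-cKO there, and 15 (48.4%) passed the test in that direction, against 2.75% of all genes tested at both times. The interaction was past the threshold and negative for 11 of the 44 and positive for 1, Gprc5a, which was further apart at 0 h than at 24 h (1.35, adjusted p = 0.0364). Gm26782 is an example of a like difference at both times, with −1.66 at 24 h and −1.73 at 0 h (interaction adjusted p = 0.935). Both genes were named after their values were seen. The 0 h and 24 h comparisons share no library, but they share the strain difference.

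Genes of the TGF-β pathway itself mostly did not pass the test. On the list of ligands, latency and activation proteins 0 of 13 passed the test, and 0 of 14 receptors and Smads did. Itgb8 differed by 0.19 (SE 0.14, adjusted p = 0.486). Itgav, the αV partner, differed by −0.25 (SE 0.17, adjusted p = 0.462). Tgfb2, a ligand gene of the lens, had 142, 153 and 173 FPKM in WT against 101, 111 and 99.9 FPKM in β8ITG-cKO (−0.58, SE 0.14, adjusted p = 0.0541), with no overlap. Tgfb1 differed by −0.42 (SE 0.13, adjusted p = 0.123) and Tgif1, a Smad corepressor, by −0.65 (SE 0.19, adjusted p = 0.095). All 16 TGF-β and EMT target genes tested had lower means in β8ITG-cKO, with a median of −0.40. Without WT replicate 2, 14 of the 16 had lower means and the median was −0.34, and without WT replicate 1, 15 had. Of the 16, 7 had no overlap, against 9% of all genes in that direction, and 1 passed the test, in the lower direction. Grem1 was the single one of 11 genes of the BMP list.

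Contractile and actin-binding genes also had lower means in all 13 tested, with a median of −0.54. Their sums were 2129, 3136 and 1218 FPKM in WT against 1229, 1512 and 1109 FPKM in β8ITG-cKO, so WT replicate 3 lay within the range of β8ITG-cKO. Without WT replicate 2, 12 of the 13 had lower means and the median was −0.31. Flnc, filamin C of muscle-like cells, had 54.1, 73.2 and 60.3 FPKM in WT against 38.8, 38.8 and 36.5 FPKM in β8ITG-cKO (−0.69, SE 0.15, adjusted p = 0.0333), and its fold of means of 1.64 kept it from being called. Acta2, the myofibroblast actin, had a difference of −0.88 (SE 0.55, adjusted p = 0.419), with overlapping groups. Itga5, the fibronectin receptor subunit, differed by −1.26 (SE 0.33, adjusted p = 0.0692), and 0 of 10 integrin genes passed the test. Thbs1, Fn1 and Tnc, matrix proteins of wounds, differed by −1.03, −0.31 and −0.31 (adjusted p = 0.269, 0.744 and 0.77), and for each of them WT replicate 3 lay below the other WT libraries. No gene passed among 15 matrix genes or 15 collagen genes, whose medians were −0.31 and 0.00.

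Among the remaining response lists, single genes passed. Of 22 cytokine, chemokine and acute-phase genes, Cxcl5 passed, and of 4 neutrophil genes tested 0 did, although their median was −1.04. S100a8 and S100a9, the calprotectin subunits of neutrophils, had differences of −1.56 and −1.25 (adjusted p = 0.0658 and 0.0862). Of 13 interferon-stimulated genes, Rsad2, the antiviral enzyme viperin, was called lower (2.96, 6.97 and 5.69 FPKM in WT against 1.18, 0.847 and 1.5 FPKM in β8ITG-cKO), a call that stayed in 1 of 6 fits without 1 library. Of these 13 genes, 1 passed in the higher direction. On the list of MHC class I genes 0 of 9 passed, and H2-D1 differed by 0.92 (SE 0.23, adjusted p = 0.0618). Immediate early genes, DNA replication, cholesterol synthesis and NRF2 genes had 0 members past the threshold of 14, 14, 10 and 10 tested. All 13 glycolysis and hypoxia genes had higher means in β8ITG-cKO, 7 with no overlap, against 17.5% of all genes tested in that direction, and 0 passed. Eno1, the glycolytic enolase, had 403, 354 and 316 FPKM in WT against 541, 488 and 468 FPKM in β8ITG-cKO (adjusted p = 0.16). Aldoa differed by 0.34 (adjusted p = 0.311). Of the mitosis genes, 15 of 16 had higher means and Pttg1 alone passed, in the lower direction. Their sums overlapped, at 18.3 to 121 FPKM in WT against 53.7 to 120 FPKM in β8ITG-cKO. Endothelial genes were low, with 3 of 7 tested, and Kdr, a VEGF receptor, was called higher, in 3 of 6 fits without 1 library (0.267, 0.348 and 1.21 FPKM in WT against 2.76, 3.18 and 5.21 FPKM in β8ITG-cKO). Kdr had an r of 0.948 with photoreceptor RNA at 0 h, and which cells its RNA came from was not tested. Corneal stroma, macrophage and red cell lists had 0 members past the threshold of 4, 11 and 5 tested.

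Depth of the 6 libraries was estimated from the steps between low FPKM values, at 0.913 to 1.05 of that of WT replicate 1. Only ratios near equality entered this estimate, so it could not show a large difference in depth, and read counts were not used here. The β8ITG-cKO libraries had 24194 to 24616 genes above 0 and the WT libraries 22108 to 22878, and what part this had in the higher calls was not tested. Both genotypes held libraries with much and with little Xist RNA, at 0.486 to 48.0 FPKM in WT against 0.759 to 49.3 FPKM in β8ITG-cKO, so the pools differed in sex within each group. Within 10 Mb of Itgb8 on chromosome 12, 4.94% of 81 tested genes were called, against 3.65% elsewhere. A short list of 6 genes known to vary between C57BL/6 and 129 substrains gave 0 calls of 3 tested, which are too few to judge the part of the strain. Their differences ranged from −1.26 to 0.72, and the groups lay apart in 1 gene in each direction.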

How the data were processed

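RNA from pooled lens capsules was sequenced from 12 libraries, of which the 6 of 24 h PCS gave the comparison and the 6 of 0 h served beside it. Per the submitters' processing notes and the methods, libraries were made with the SMARTer Stranded Total RNA-Seq Pico Input kit, checked with FastQC, trimmed with cutadapt 1.12, aligned with TopHat2 2.1.0 and quantified with Cuffdiff 2.2.1, with mm10 and GRCm38.p5 named as builds. The authors deposited FPKM per gene and library in each table, and 2 genes at 24 h carried a failed Cuffdiff status. How reads shared by near-identical copies were counted is not given in the sources used here. The deposited columns of group means, fold changes, p-values and q-values were not used, and 0 columns of single libraries were without a sample. FPKM hold no read totals, so depth could only be estimated relative to another library.

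Genes whose mean reached 0.5 FPKM were tested on log2(FPKM + 1), which understates changes of low genes, with limma-trend and eBayes (limma 3.58.1, R 4.3.3). P-values were two-sided and adjusted over all genes by Benjamini-Hochberg. The fit at 24 h used its own 6 libraries, the fit at 0 h its own 6, and the interaction all 12. Python 3.11.15 with numpy 2.4.6, pandas 2.3.3 and matplotlib 3.10.9 served for the tables and plots, and the fit was tested on simulated data. Genes were counted on 41 lists. Genes named were, at 10 FPKM or more and without predicted genes and pseudogenes, the 8 largest rises on photoreceptor lists, the 10 largest on no retinal list, the 8 largest there with at least 10 FPKM in WT, the 12 largest falls, 11 genes of the pathway and, per list, the 2 past the threshold with the largest difference or, with none past it, the 2 most abundant. Some genes that the rule names are not reported here, but they stay in the counts. The members, lists and rule were chosen with earlier results of these data known. Promoters are those of RefSeq (GRCm38.p6), in which 90.0% of the gene symbols were found. Alternatives were another pseudocount, filter, scaling, threshold and fit, a replicate block, each library left out, and subtraction of the part that followed photoreceptor RNA at 0 h. Leaving out 0 h libraries in the relation to photoreceptor RNA, and WT libraries in counts of higher and lower means, was chosen after seeing the data.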

Additional observations from a re-analysis of the deposited data

Results flagged for a closer look

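Each gene here had a difference between genotypes at 24 h PCS other than that at 0 h, by the interaction test in limma over 12 libraries (adjusted p no higher than 0.05), and the value is the difference at 24 h minus that at 0 h on the log2 scale. No explanation was tested.

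Photoreceptor genes gave the values of one direction. They were 4.13 for Rbp3, 3.73 for Rp1, 3.77 for Crx, 3.55 for Gngt1, 3.48 for Pde6a, 3.76 for Pdc, 3.38 for Gnat1, 3.61 for Gnb3, 2.77 for Pde6h and 3.33 for Neurod1. Other retinal genes gave 4.16 for Pcp2, 2.97 for Cabp5, 1.79 for Slc1a3, 2.80 for Gad1, 2.87 for Nefl, 3.97 for Snap25, 3.70 for Syp and 1.98 for Ttr.

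Genes on no retinal list gave 4.25 for Chga, 4.02 for Sncb, 3.56 for Zfyve28, 4.10 for Chgb, 3.10 for Rtbdn, 2.67 for Lbhd1 and 3.68 for Eef1a2. Among those already at 10 FPKM in WT, the values were 2.48 for Snord116l2, 2.21 for Agtpbp1 and 1.88 for Gnao1. Kdr, from the endothelial list, gave 2.19 and the keratin gene Krt18 gave 2.14.

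Negative values were found for genes of epithelia and of the wound response. They were −1.59 for Cdh1, −2.29 for Aldh3a1, −1.18 for Tgm1, −2.18 for Sprr2e, −2.47 for Stfa3, −1.56 for Lgals3, −1.50 for Anxa8 and −0.79 for Anxa4. Immune and ligand genes gave −1.33 for Rsad2, −1.57 for S100a9, −0.96 for H2-D1, −0.87 for Tgfb1 and −0.58 for Tgfb2. Gprc5a, which was lower in β8ITG-cKO at both times, gave 1.35.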

How the results depend on the processing

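The 518 higher and 44 lower genes became 867 and 99 (966 in all) with the adjusted p alone and 324 and 18 (342) with a fold over 4. Lower genes numbered 20 without a filter on low values and 89 in 1 fit over all 12 libraries. After subtraction of the part that followed photoreceptor RNA at 0 h, 157 genes were higher and 337 lower, 18 photoreceptor genes were higher, and 9 lens genes were called. In place of 0, 1 lens gene was called after rescaling to the same median and 1 with the adjusted p alone. The cause of these shifts was not tested. With 1 library left out, the calls ran from 371 to 638, the higher genes from 350 to 552, the lower genes from 21 to 86, the photoreceptor genes from 48 to 55 and the lens genes from 0 to 1. Lower genes were 86 without WT replicate 1, 21 without β8ITG-cKO replicate 2 and 28 without β8ITG-cKO replicate 3, and all calls were 371 without β8ITG-cKO replicate 2. At 0 h the range was 125 to 378 around 371 calls, with 206 without WT replicate 1, 214 without β8ITG-cKO replicate 2 and 125 without replicate 3. The interaction ranged from 688 to 1921 around 1433, with 931 without WT replicate 1 of 0 h, 688 and 754 without β8ITG-cKO replicates 2 and 3 of 0 h, and 902, 805 and 929 without β8ITG-cKO replicates 1, 2 and 3 of 24 h. Genes with r above 0.9 ranged from 196 (without WT replicate 2 of 0 h) to 371 around 319.

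Replicate numbers did not pair the samples: same-numbered libraries of 24 h had correlations of deviations of −0.25, 0.06 and 0.03. With the replicate block, 487 genes were higher and 37 lower (524), and 224 were called at 0 h in place of 371.

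With 1 library left out, Fn1 ranged from −0.84 to 0.13 and Tnc from −0.86 to 0.19, with the sign changed without WT replicate 2, and Rdh5 from −0.35 (without WT replicate 3) to 0.31. After the subtraction Rdh5 (−0.00085), Slc1a3 (−0.15), Snord116l1 (−1.78), Scarna6 (−1.44) and Itgb8 (−0.26) did. Over the named genes, 1237 values kept direction and side of the threshold under an alternative, 108 lost the threshold and 15 passed it. FPKM give no counts, so how far depth limits low genes is unknown.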

Other observations

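The WT libraries of 24 h differed among themselves in several gene groups, including groups counted by genotype above. Mitosis genes, which drive chromosome segregation, summed to 121, 34.3 and 18.3 FPKM in WT replicates 1, 2 and 3 and to 53.7, 97.5 and 120 FPKM in β8ITG-cKO. DNA replication genes had the same order, with 337, 216 and 78.2 FPKM in WT and 181, 288 and 247 FPKM in β8ITG-cKO. WT replicate 3 was the lowest of the 6 libraries for both groups, and WT replicate 1 the highest. All 14 DNA replication genes had higher means in β8ITG-cKO, but 12 of the 14 had lower ones without WT replicate 3. Cytokines, chemokines and acute-phase genes summed to 1688, 2500 and 4750 FPKM in WT and 2418, 1187 and 2868 FPKM in β8ITG-cKO, with WT replicate 3 the highest.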
